A study of Cyprinus carpio with 12 samples.

Results

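CpG methylation was examined in 4 genes of common carp (Cyprinus carpio), the DNA damage kinase genes atm and atr, the excision repair gene ercc6 and the cohesin gene rad21b. They were taken by symbol from the RefSeq gene table of the carp assembly, and every listed differentially methylated region with at least 1 base in the gene body or within 1 kb of either gene end was kept. This gave 12 of the 80043 regions of both lists, 7 of 41022 in sperm and 5 of 39021 in embryos, in 4 of the 59559 genes of the table. The genes were selected on the listed differences between stored and fresh groups, that is on the levels given below, so that these levels describe the genes and were not tested.

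The study applied whole-genome bisulphite sequencing to fresh sperm (0 days after stripping), sperm stored for 14 days, and mid-blastula embryos from either kind, with 3 libraries in each of the 4 groups. Sperm came from hormone-treated mature males and was diluted in an artificial extender and kept on ice, embryos were pooled for DNA extraction, and by the study's methods the same males gave the fresh and the stored sperm while 1 female gave all eggs. No genotype, strain or transgene is given, and the time of stripping or fertilisation cannot be told apart from storage where they differed between the groups. Each list gives 1 methylation level per group and region, here as a percentage, without values per library or read depth, so that no level carries an error and no spread between replicates could be set against a difference. Embryo libraries hold maternal as well as paternal DNA.

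Atm and atr encode large kinases that start the DNA damage response. ATM answers double-strand breaks and ATR answers stretches of single-stranded DNA at stalled replication forks, and both phosphorylate checkpoint kinases. Ercc6 encodes the CSB protein, which brings excision repair to RNA polymerase halted at a lesion, and rad21b encodes a copy of the kleisin subunit that closes the cohesin ring around sister chromatids. Mature sperm repair little of their own DNA, and lesions carried into the egg are handled after fertilisation largely with proteins that the egg supplies. In vertebrates most gene-body CpGs are highly methylated, whereas CpG-rich stretches such as many promoters are kept at low methylation.

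Every listed region had at least 5 CpG cytosines, a difference between the groups of at least 10 percentage points and a p-value below 0.05, unadjusted. The study's methods name at least 5 sites, a 2-fold change and a Fisher test, but no floor of 10 points. The study also reports fewer regions for either tissue than are listed here. Some regions are too short for their number of CpG sites unless cytosines of both strands were counted (372 in sperm, 340 in embryos), so the number is given here as CpG cytosines. All 12 regions lay inside gene bodies and none in a flank. The region closest to a gene end lay 1.33 kb inside rad21b, and the nearest left out were an embryo and a sperm region 3.37 and 3.42 kb beyond the same end. Strand and exons were not used, so positions are counted in kb from the gene end with the lower coordinate (assembly ASM1834038v1, 1-based), without saying whether that end is the start of transcription.

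The genes differed in where and how regions were listed. Atm held regions in both tissues, higher with storage in sperm and lower with stored sperm in embryos, at separate sites. Atr held regions in sperm alone and ercc6 in embryos alone. Rad21b held the largest differences and the sole site at which a sperm and an embryo region overlapped, with higher methylation in the stored group in both. At the whole-list level 28.3% of 41870 protein-coding genes held a sperm region in body or flank and 26.9% an embryo region, beside 3 of the 4 genes in each tissue, a count that their choice fixed.

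**Figure D1:**
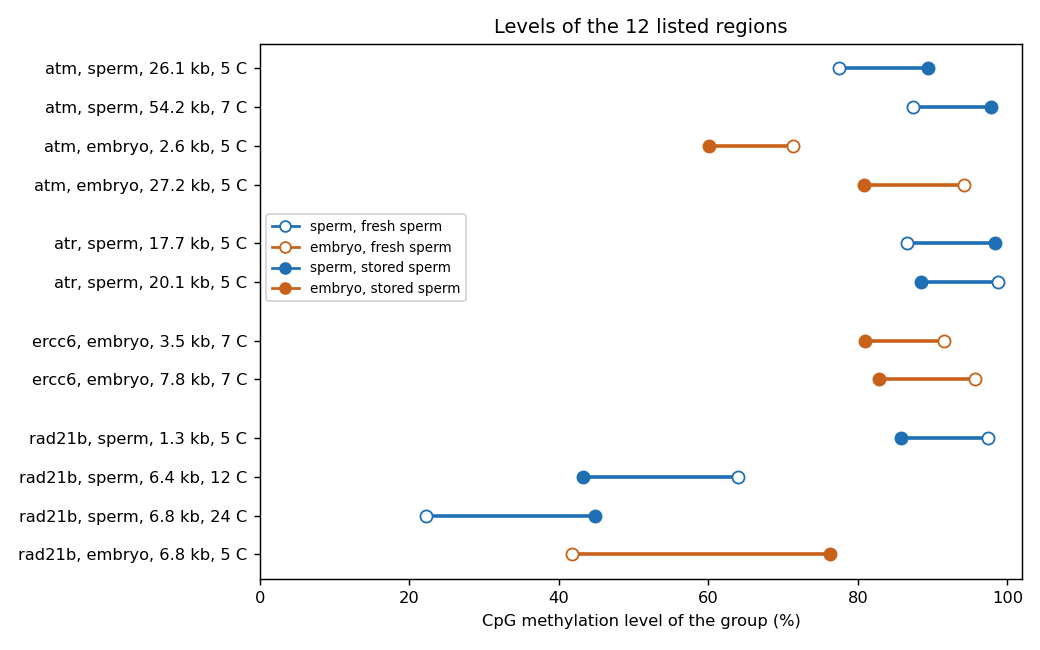
Methylation level (x axis, percentage) of each of the 12 regions, labelled with gene, tissue, distance from the lower gene end and number of CpG cytosines (C). Open circles are the fresh-sperm group and filled circles the stored-sperm group. The 8 regions of atm, atr and ercc6 lie between 60.1% and 98.7%, whereas 3 of the 4 regions of rad21b have a level below 50%.

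Atm is the longest of the 4 genes (chromosome B15, 8158421 to 8219686, 61.3 kb) and held 2 regions in each tissue. In sperm, a region of 5 CpG cytosines at 26.1 kb (8184475 to 8184496) had 77.5% in fresh and 89.4% in stored sperm. The other sperm region, of 7 cytosines at 54.2 kb (8212561 to 8212674), had 87.4% and 97.8%, which left 2.24% unmethylated in place of 12.6%. Both were thus more methylated in the stored group, by 11.9 and 10.4 percentage points.

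In embryos both atm regions were less methylated when stored sperm was used. The region at 2.56 kb (8160952 to 8161004, 5 cytosines) had 71.4% with fresh and 60.1% with stored sperm, and was the least methylated region outside rad21b. The region at 27.2 kb (8185650 to 8185688, 5 cytosines) had 94.2% and 80.8%. It lay near the first sperm region without touching it, 1153 bp apart, and the directions were opposite. No other sperm region was listed within 64.5 kb of the gene, and the nearest other embryo region, 9.92 kb before the lower end and next to bace2, had 81.6% and 94.5%. Among coding genes of 0.5 to 2 times the length of atm, 70.2% held a sperm region and 67.3% an embryo region.

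Atr (chromosome A2, 9121782 to 9145631, 23.9 kb) held 2 sperm regions of 5 cytosines each, toward the upper end. At 17.7 kb (9139422 to 9139627) the level was 86.5% in fresh and 98.3% in stored sperm. At 20.1 kb (9141789 to 9141878) it was 98.7% and 88.4%. The neighbouring sites thus exchanged places, since the site that was nearly full in fresh sperm was the less methylated one in stored sperm, and the mean difference over both was 0.77 points. No embryo region was listed in the gene, the nearest lying 88.0 kb away. Of coding genes of similar length 41.5% held a sperm and 39.2% an embryo region.

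Ercc6 (chromosome A13, 17790623 to 17807442, 16.8 kb) showed the reverse distribution, with 2 embryo regions and none in sperm, where the nearest region lay 40.9 kb away. At 3.51 kb (17794029 to 17794234, 7 cytosines) embryos had 91.5% with fresh and 81.0% with stored sperm. At 7.79 kb (17798318 to 17798499, 7 cytosines) they had 95.6% and 82.8%. Both regions therefore started above 90% and were lower by 10.5 and 12.8 points, and a further embryo region 8.82 kb beyond the upper end, in no gene, had 91.8% and 80.8%. Of coding genes of similar length 32.6% held a sperm and 30.6% an embryo region.

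**Figure D2:**
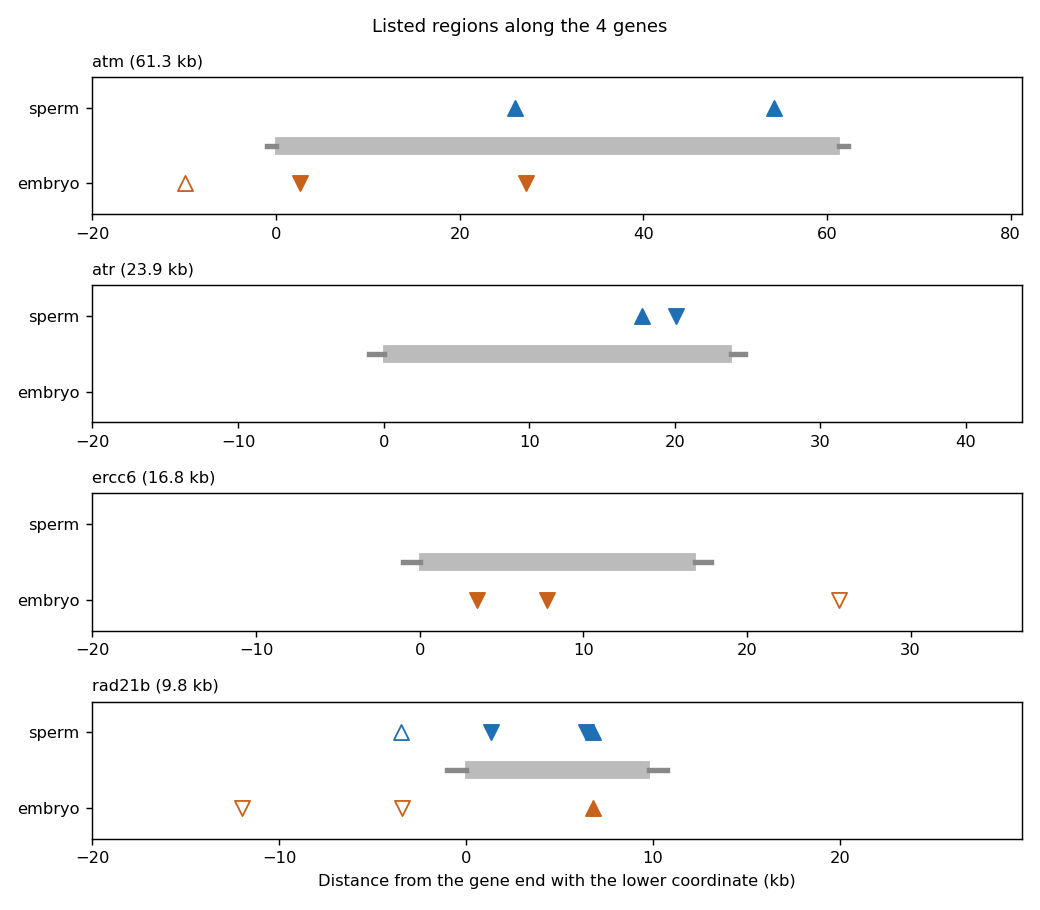
Regions along the 4 genes (grey bars, with 1 kb flanks as thin grey lines), plotted by distance in kb from the lower gene end and shown to 20 kb on each side. Upward triangles are regions with a higher and downward triangles regions with a lower level in the stored group, with sperm above and embryos below each gene. Filled triangles are the 12 regions inside the genes and open triangles the 5 regions outside the flanks.

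Rad21b is the shortest of the 4 genes (chromosome B19, 15831908 to 15841676, 9.77 kb) and held 3 regions in sperm and 1 in embryos. Its sperm regions held 41 CpG cytosines, against 12 in atm and 10 in atr. Near the lower end, at 1.33 kb (15833160 to 15833322, 5 cytosines), fresh sperm had 97.4% and stored sperm 85.8%, a region like those of the other genes. The other regions lay close together between 6.40 and 6.80 kb and had intermediate or low levels. Among coding genes of 0.5 to 2 times the length of rad21b, 22.4% held a sperm region and 20.6% an embryo region.

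At 6.40 kb (15838173 to 15838451, 12 cytosines) the level was 64.0% in fresh and 43.3% in stored sperm. At 6.80 kb (15838646 to 15838777, 24 cytosines over 132 bp) it was 22.3% in fresh and 44.8% in stored sperm. These neighbours, 194 bp apart, differed by 41.7 points in fresh sperm and by 1.53 points, in the other order, in stored sperm. In fresh sperm a partly methylated stretch was thus followed by a lowly methylated one, and in stored sperm both had about the same level. Weighted by their cytosines, both regions together had 36.2% in fresh and 44.3% in stored sperm. No level is listed for the 194 bp between them. Neighbouring sperm regions under 500 bp apart went in opposite directions in 839 of 2258 cases (37.2%) over the whole list.

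The region at 6.80 kb stood out within the list by its size in cytosines, since 0.783% of sperm regions held as many. Levels in both groups at or below 44.8% were shared by 5.78% of sperm regions, and 5.82% had a larger difference. It was also the sole one of the 12 regions to meet the 2-fold change that the study's methods name (2.01-fold), which 3.94% of sperm regions and 4.20% of embryo regions met.

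In embryos the rad21b region lay inside this sperm region. At 15838693 to 15838714 (5 cytosines over 22 bp) embryos had 41.8% with fresh and 76.2% with stored sperm, a difference of 34.4 points that 0.625% of embryo regions exceeded. All of the embryo region and 16.7% of the sperm region were shared. The direction was the same, higher in the stored group, but the levels cannot be compared directly because the embryo region covers 5 and the sperm region 24 cytosines. Over the whole lists 2938 sperm and embryo pairs overlapped on placed chromosomes, of which 48.8% had the same direction and 23.1% were higher in both, and 3.00% of coding genes held such a pair (1.71% of genes of 0.5 to 2 times the length of rad21b).

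A second overlap lay outside the flank, 3.37 to 3.42 kb before the lower end of rad21b, where mterf3, a gene of the mitochondrial transcription termination factor family, lies between. Fresh sperm had 11.8% and stored sperm 26.4% at 15828398 to 15828490 (11 cytosines). Embryos had 28.1% with fresh and 16.7% with stored sperm at 15828424 to 15828538 (11 cytosines), so that here the directions were opposite. Both tissues were thus listed at 2 sites in and near rad21b, with the same direction at the one inside the gene. The outer site was assigned to mterf3 and another coding gene, LOC109097056, and not to rad21b.

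**Figure D3:**
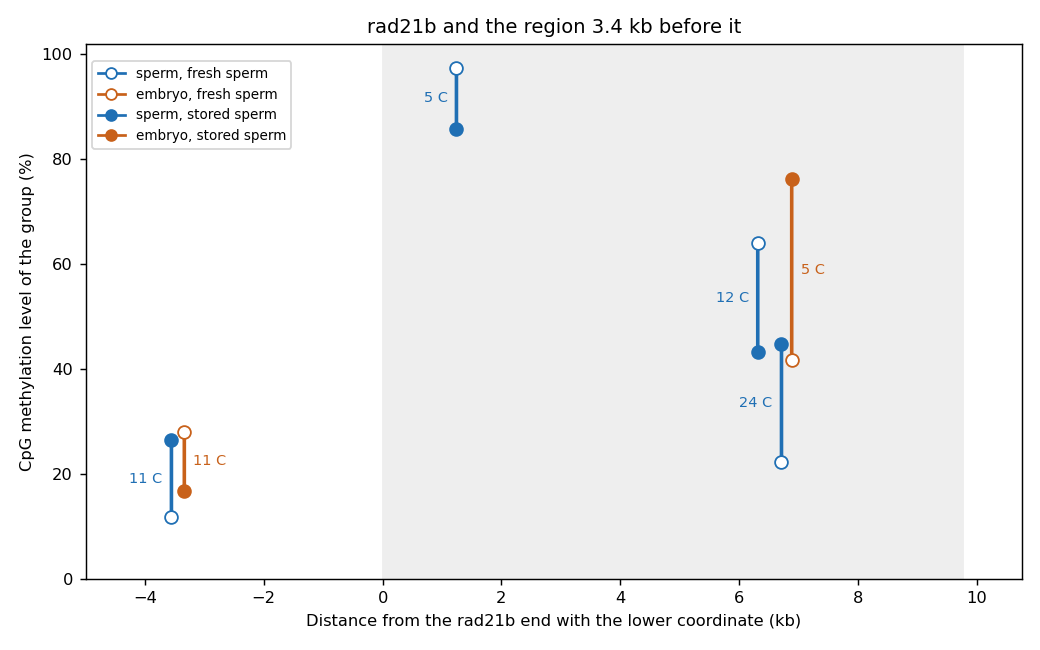
Methylation level (y axis, percentage) of the regions in rad21b (grey background) and 3.4 kb before it, by distance in kb from the lower gene end. Open circles are the fresh-sperm group, filled circles the stored-sperm group and C marks the number of CpG cytosines, and sperm and embryo points are moved slightly apart. At 6.8 kb both tissues are higher in the stored group (22.3% to 44.8% in sperm, 41.8% to 76.2% in embryos), and just before it sperm is lower (64.0% to 43.3%).

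The remaining 9 regions are those left once the rad21b regions with the largest differences were set apart. That they lie within the common range of the list follows partly from that choice. Their differences ran from 10.3 to 13.4 points, beside medians over all regions of 12.4 in sperm and 12.5 in embryos, and they held 5 or 7 cytosines where the median was 5. In 8 of the 9 regions both levels were at least 75%, beside 69.5% of all sperm and 67.8% of all embryo regions. The exception was the atm region at 2.56 kb in embryos.

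How far the stored and fresh values of a region overlapped was read from the deposited p-values. These had the form of rank-sum tests with 1 value per cytosine and library (99.9% of regions in either list gave a whole rank sum). A p-value then gives the share of pairs of a stored and a fresh value that follow the region's direction, if ranks follow the levels. The reading also assumes that no values are tied, which could not be checked without values per library. Cytosines of a library are not independent, and the share does not measure the spread between libraries. The share also depends on how levels differ between cytosines, so it does not show whether the cytosines of a region shifted alike. It was 89.8% in the rad21b region of embryos, 85.8% in the atr region at 20.1 kb and 84.0% in the atm embryo region at 2.56 kb. The first ercc6 region had the lowest share, 69.4%, and the rad21b sperm regions at 6.40 and 6.80 kb had 72.2% and 80.0%, beside medians of 78.2% and 77.8% over all sperm and embryo regions. As every listed p-value is below 0.05, the share cannot fall below a floor, which is lower for regions with more cytosines. Shares of regions with unlike numbers of cytosines, and the medians over the lists, are therefore not directly comparable. No relation between share and difference of levels was drawn from them. A p-value below 0.001 was deposited for 5 of the 12 regions, 1 each in atm, atr and ercc6 and 2 in rad21b, and for 23.5% of sperm and 24.4% of embryo regions overall.

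**Figure D4:**
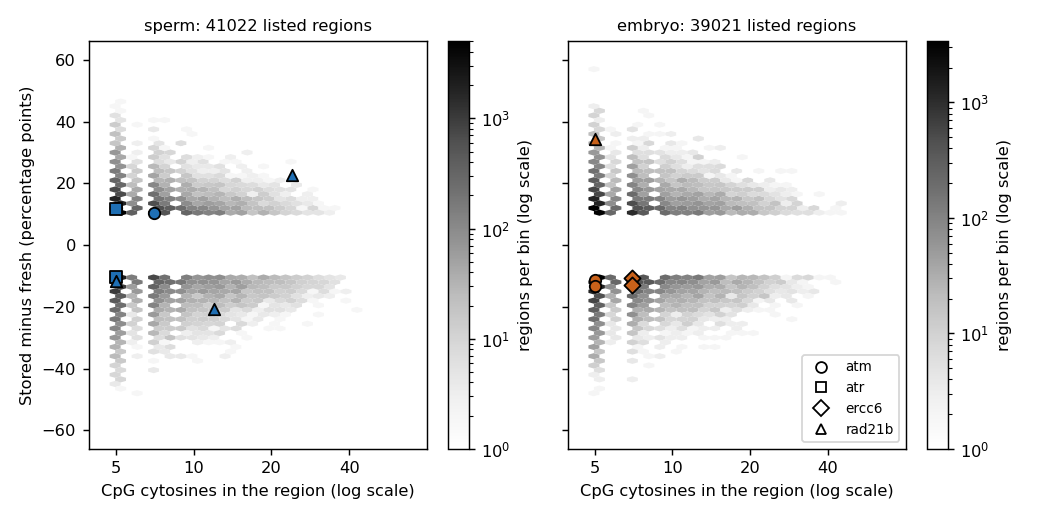
Difference in level, stored minus fresh in percentage points (y axis), against the number of CpG cytosines (x axis, log scale), for all 41022 sperm regions and all 39021 embryo regions (grey bins, log colour scale), with the 7 sperm and 5 embryo regions of the 4 genes as coloured symbols. The band around 0 is empty because no listed difference was smaller than 10 points. The rad21b regions of 24 and 12 cytosines in sperm and of 34.4 points in embryos lie away from the densest bins, and the other 9 lie close to them.

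Other genes of the same pathways were described from 6 lists of 223 names, of which 122 coding genes were matched by symbol, the 4 genes included. Copies of these genes that carry another symbol were not searched, so a gene without a region is described for the matched copy alone. Of the other 118 genes, 20 held a sperm region (16.9%, beside 28.3% of all coding genes) and 25 an embryo region (21.2%, beside 26.9%). They had a median length of 7.18 kb against 8.56 kb for all coding genes. By list the median ran from 5.09 kb in DNA damage signalling to 15.6 kb in replication helicases and translesion polymerases. Longer genes held regions more often, with sperm regions in 22.4% of genes near the length of rad21b and 70.2% near that of atm. The shares per list below are not matched for length. In sperm 13 of them held a region that was higher and 10 one that was lower in the stored group (21.3% and 13.2% of all coding genes), and in embryos 12 and 16 (16.7% and 16.5%). Their 34 sperm regions were 21 higher and 13 lower, with a median difference of 10.8 points beside 10.6 over all sperm regions. Their 33 embryo regions were 14 higher and 19 lower, with a median of -10.3 points beside 10.03 over all embryo regions. As no listed difference lies between 10 points below and 10 points above 0, the sign of such a median follows whichever direction has the majority. Over the whole lists 62.0% of sperm and 50.4% of embryo regions were higher and 38.0% and 49.6% lower, and the counts per list below were not tested against these shares. Regions in both tissues were held by 9 of these 118 genes, beside 14.5% of all coding genes. Overlapping regions were held by none of them, beside 3.00% of all coding genes.

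Of the DNA damage signalling genes besides atm and atr, 2 of 20 (10%) held a sperm and 3 (15%) an embryo region. Over all coding genes the shares were 28.3% and 26.9%. In chek2, the checkpoint kinase that ATM activates, the largest region was lower in the stored group in both tissues, at 94.7% and 83.8% in sperm and at 93.0% and 82.0% in embryos. The sperm and embryo regions of chek2 did not overlap. In ppm1da, a copy of the phosphatase gene that ends checkpoint signalling, sperm had 83.6% and 98.9% and embryos 10.1% and 25.2% at another site of 25 cytosines. Hus1, of the checkpoint clamp, had 84.8% and 98.7% in embryos. No region was listed in the matched copy of chek1, the kinase downstream of ATR.

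Excision repair had 4 of 24 genes besides ercc6 in sperm and 4 in embryos (16.7% each, beside 28.3% and 26.9% of all coding genes). Of the 5 embryo regions 1 was higher and 4 were lower with stored sperm. Of the ercc6 relatives that this list includes, ercc6l2 (14.3 kb) had 98.4% in fresh and 86.5% in stored sperm. The shorter ercc6l (6.25 kb) held no region. Whether these relatives act in excision repair was not examined. Uvssa, which acts with CSB at halted polymerases, had 24.3% and 12.9% in embryos. In the nuclease genes ercc1 and ercc5 embryos had 74.9% and 62.6%, and 83.1% and 94.8%. The damage recognition gene rad23b had 87.9% and 99.4% in sperm and 58.7% and 39.7% in embryos, the latter in its flank. In sperm the glycosylase gene neil1 had 87.3% and 98.7%, and parga, whose product removes poly(ADP-ribose), 97.8% and 83.1%.

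Strand break repair held 14 embryo regions in 9 of 28 genes (32.1%, beside 26.9% of all coding genes), 5 higher and 9 lower with stored sperm. In sperm it held 9 regions in 5 genes (17.9%, beside 28.3% of all coding genes). Prkdc encodes an ATM-related kinase that acts in the joining of broken ends. Its largest region was lower in both tissues, at 86.0% and 72.5% in sperm and 92.8% and 82.1% in embryos. However, 1 of the 2 sperm regions of prkdc was higher. In zswim7 the largest regions, at 94.7% and 79.5% and at 98.7% and 87.7%, were also lower, whereas 3 of its 4 sperm regions were higher. Babam2 was higher in its largest region in both, at 88.3% and 98.6% and at 78.6% and 95.1%, whereas babam1 had 87.7% and 77.6% in sperm. In prkdc, zswim7 and babam2 the sperm and embryo regions lay at separate sites. Of the genes with embryo regions alone, the helicase gene brip1 had 77.0% and 94.3% in the larger of its 2 regions, the other being lower. Also in embryos alone, the meiotic helicase gene hfm1 had 52.4% and 34.6% over 23 cytosines and palb2 97.9% and 87.7%. Likewise rad52 had 97.4% and 85.6% in its flank, and the end-joining gene xrcc4 86.8% and 97.1%.

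Among mismatch and crosslink repair genes, 2 of 17 (11.8%) held a sperm and 3 (17.6%) an embryo region, beside 28.3% and 26.9% of all coding genes. The largest embryo difference of the 118 genes was in the flank of fancm, a DNA translocase gene of the Fanconi pathway, from 41.0% to 74.2% over 8 cytosines. The MutL genes pms1 (83.4% and 98.3%) and mlh3 (85.1% and 95.1%) were also higher in embryos from stored sperm. The 4 embryo regions of this list, 2 of them in fancm, were higher, as were 50.4% of all embryo regions. In sperm the mismatch recognition gene msh6 had 88.2% and 72.0% and the nuclease gene mus81 82.8% and 96.5%.

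Of 13 replication helicase and translesion polymerase genes, 3 held a sperm region (23.1%) and 4 an embryo region (30.8%), beside 28.3% and 26.9% of all coding genes. The 4 embryo regions were lower when stored sperm was used, as were 49.6% of all embryo regions. These regions were in the RecQ helicase genes recql4 (89.3% and 77.9%) and wrn (96.1% and 84.7%), in the polymerase zeta gene rev3l (97.6% and 84.9%) and in wdr48b (96.7% and 86.3%). In sperm recql4 had 76.1% and 88.2% and rev3l 83.3% and 95.4%. In both genes the largest region was thus higher in stored sperm and lower in embryos, as in atm, at sites that did not overlap. In rev3l (78.0 kb) they lay far apart, at 3425116 to 3425228 in sperm and 3375324 to 3375363 in embryos. Timeless, of the fork protection complex, held 8 sperm regions, 4 in each direction, the largest at 97.8% and 81.6%.

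In the cohesin and SMC complex list, 4 of 16 genes besides rad21b (25%) held a sperm and 2 (12.5%) an embryo region. Among all coding genes 28.3% and 26.9% did. Smc1b, which encodes a meiotic subunit of the cohesin ring, had 87.1% and 98.0% in sperm. Condensin genes differed in direction, with ncapd3 at 94.1% and 80.6% and ncaph at 84.4% and 96.3% in sperm. In embryos the flank of ncapg2 had 32.2% and 14.2% over 14 cytosines, and its other embryo region was higher. The flank of nsmce4a, of the SMC5/6 complex, had 93.4% and 80.8% in sperm and smc5 81.0% and 91.0% in embryos. No region was listed in the matched copies of the cohesin genes smc1a and stag2b or of the release factor gene wapla. No other gene was matched under the name rad21, and copies under other symbols were not searched. Rad21b was the sole gene of the 122 in which a sperm and an embryo region overlapped. Over all coding genes, 3.00% held such a pair.

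**Figure D5:**
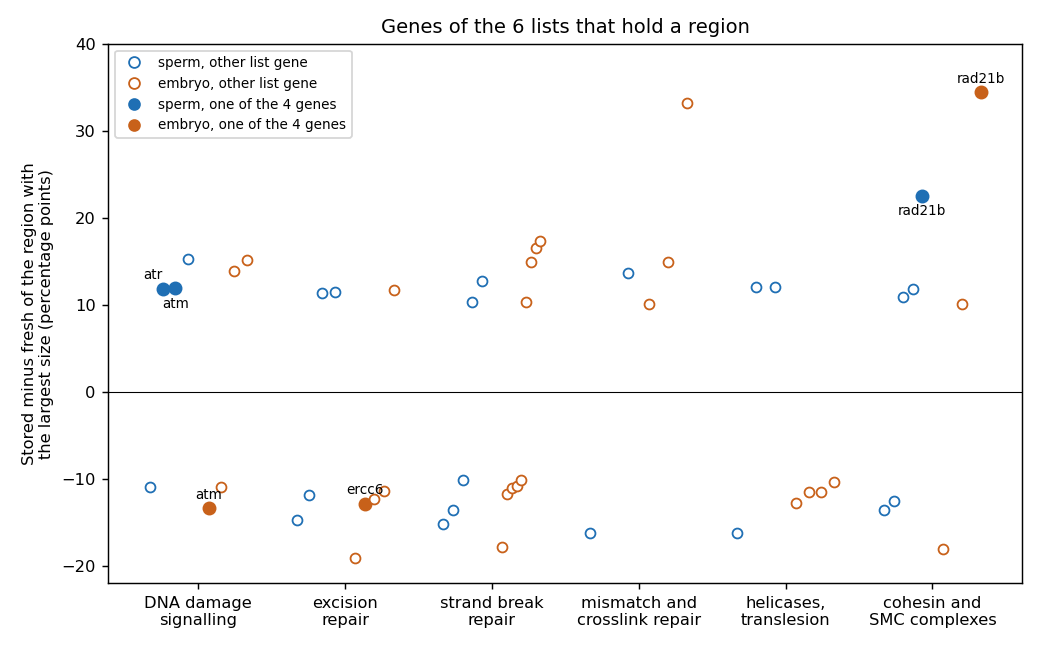
Stored minus fresh level (y axis, percentage points) of the region with the largest difference in each gene of the 6 lists that holds a region, in sperm (blue) and embryos (orange), with filled circles for atm, atr, ercc6 and rad21b. Rad21b reaches 22.6 points in sperm and 34.4 in embryos, the other sperm values stay within 16.2 points of 0, and fancm is the other embryo value above 30 points.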

How the data were processed

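The deposited tables list differentially methylated CpG regions, 1 for sperm and 1 for embryos. According to the study's methods, the authors mapped clean bisulphite reads to the carp assembly ASM1834038v1 with BSMAP (no version stated), removed duplicates and took methylated over all reads at a cytosine. The authors deposited each group's level as a fraction, a difference (a signed score), a p-value and the number of CpG cytosines per region. The difference equalled fresh minus stored within 1e-05 and was used for that check alone, and the p-value for a threshold and the rank-sum reading. The methods name a Fisher test. Read depth and values per library were not analysed here, so precision is unknown.

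Sorted chromosome accessions were read as A1 to A25, then B1 to B25, and the 4 chromosomes used matched best by their last positions too. Deposited starts were taken to count from 0 and were raised by 1, because 80 sperm and 78 embryo regions start at the end of the one before (5 to 19 at each distance of 1 to 11 bp). Overlap required 1 bp. Tools were Python 3.11.15, pandas 2.3.3, numpy 2.4.6 and scipy 1.17.1. Assignment, overlap and rank-sum code was tested on simulated data, the rank sums on values without ties. No test was run on the 4 genes, and unplaced regions were not assigned to genes.

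Members and lists were chosen with earlier results of these data known. Named were the 4 genes, the list genes with a region (its largest per tissue, symbols with a or b appended accepted), and relatives of the 4 genes, with a few list genes not reported here. Alternatives changed the flank, the filter on regions, the overlap, the weighting and the symbol match.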

Additional observations from a re-analysis of the deposited data

How the results depend on the processing

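Stricter filters removed most regions of the 4 genes. Of 7 sperm regions, 3 had a p-value below 0.001, 2 differed by 0.2 or more, 1 had a 2-fold change and 2 at least 10 CpG cytosines. Of 5 embryo regions the same filters left 2, 1, 0 and 0. Over the whole lists, 23.5% of sperm and 24.4% of embryo regions had a p-value below 0.001. A 2-fold change was met by 3.94% and 4.20%, and 12.0% and 13.0% had at least 10 CpG cytosines. The share that differed by 0.2 or more was not counted over the lists. In sperm, 8.06% of regions exceeded the 20.7 points of the rad21b region at 6.40 kb. In embryos, 0.625% exceeded the 34.4 points of the rad21b region. Of the 122 list genes, 23 (18.9%) held a sperm region, beside 28.3% of all coding genes, and 28 (23.0%) an embryo region, beside 26.9%. Under the 4 filters, in the order in which they were applied to the sperm regions, 5, 1, 1 and 2 genes were left in sperm. In embryos 9, 2, 2 and 5 were left. The filters were not applied to all coding genes, so it is unknown whether this drop is particular to the lists. Sperm and embryo regions coincided at 1 site, at 2 pairs of regions within 500 bp and at 3 within 2 kb. The pairs added by the looser distances, in rad21b (241 bp apart) and in atm (1153 bp apart), went in opposite directions. The added rad21b pair holds the same embryo region as the overlapping pair. These counts were not set beside a share over the whole lists. The mean difference over the sperm regions of rad21b was -3.28 points and turned to 5.72 points when weighted by cytosines, because its regions differ in direction and the region of 24 cytosines then weighs most. Gene bodies alone, a 5 kb flank and exact symbols kept every count within 1.5 times. No paired analysis was possible because the tables hold 1 level per group, and no replicate could be left out for the same reason. The tables give no depth, so which differences lie within counting error is unknown.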
